A study of Homo sapiens with 3 samples.

Results

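SKBR3 cells given estradiol for 3 h were compared with SKBR3 cells given the ethanol vehicle, which uses 2 of the 3 arrays of the series. SKBR3 is an established human breast cancer line with amplified ERBB2, which carries the membrane oestrogen receptor GPER1 and is known to lack oestrogen receptor α. All cells first spent 4 h with 10% charcoal-stripped serum, a serum poor in steroid hormones. The vehicle sample then received 0.1% ethanol, the estradiol sample 1 µM estradiol, and the sample of the third array 1 µM ERα17p, a synthetic peptide taken from oestrogen receptor α. The labels do not say whether the estradiol sample received ethanol as well. Each condition had 1 array, so the differences have no replicate check, no error and no test. The difference of the array labelled estradiol minus the array labelled vehicle was taken for all 41091 of 54675 probe sets that carry exactly 1 gene symbol. Medians over the probe sets of a gene gave values for 19775 genes. The comparison asks which early genes differ after estradiol.

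Estradiol acts through nuclear receptors that bind DNA and through GPER1, a G protein-coupled receptor that raises cyclic AMP and releases EGF receptor ligands, so that ERK kinases become active. Immediate early genes such as FOS, JUN and EGR1 are switched on by ERK within minutes. NF-kB factors, held in the cytosol by inhibitor proteins until a cytokine or stress signal arrives, switch on chemokines, adhesion molecules and their own inhibitors through kB sites in promoters.

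The values are log distances of each probe set from a baseline that the authors had subtracted. No source used here names the base of the logarithm, and 2 was assumed. Expression levels cannot be read from such values, so that a difference of a hardly expressed gene cannot be told apart from that of an expressed one. In a culture, fewer cells that express a gene and less RNA per cell cannot be told apart either. "Lower" and "higher" below mean at least 1.5-fold, 0.585 on the log2 scale, on the estradiol array against the vehicle array. Each call was also read against 0, the authors' baseline. In 1920 of 54613 probe sets the estradiol and ERα17p values were mirror images around 0. The baseline can therefore not be taken as independent of these arrays, and a call against 0 is no independent check. A gene is said to lie at its distances from that baseline on the vehicle and estradiol arrays, in that order and followed where given by the ERα17p array, and to differ by the estradiol minus the vehicle value.

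The array labelled vehicle stood apart. Its label was taken as given: the files hold no independent check of which array is the vehicle, the labels do not say whether the samples were handled together, and the direction of every estradiol minus vehicle difference depends on it. Gene values had a standard deviation of 0.27 log2 units on it, against 0.10 on the estradiol array and 0.11 with ERα17p. On the vehicle array 465 genes lay at least 1.5-fold above 0 and 60 below. Control probe sets at both ends of a transcript serve to read RNA integrity, but the values here are distances from the baseline. Their 3′ minus 5′ difference therefore only compares arrays and does not give the integrity of any array. For ACTB it came to 0.30, 0.02 and -0.04 on the vehicle, estradiol and ERα17p arrays. For GAPDH it came to 0.05, 0.01 and -0.03 in the same order. The part of RNA integrity in the differences below was not tested.

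Of the 19775 genes, 579 (2.93%) were lower with estradiol and 160 (0.809%) were higher. At 2-fold, 177 (0.895%) were lower and 2 (0.0101%) higher. The list counts below are to be read beside the 2.93% and 0.809% at 1.5-fold. In lists of the sizes used here 0.809% comes to few or no genes. A list with 0 higher is therefore near the share of all genes. The lower genes had medians of 0.74 on the vehicle array, -0.06 with estradiol and 0.06 with ERα17p. Of the 579, 450 lay at least 1.5-fold above 0 on the vehicle array and 8 lay as far below 0 on the estradiol array. The estradiol array was the farther one from 0 in 15 of the 579. The higher genes had medians of -0.48 on the vehicle array, 0.18 on the estradiol array and -0.02 with ERα17p, and the estradiol array was the farther one in 31 of the 160. Read against 0, the estradiol array had 10 genes (0.0506%) at least 1.5-fold below and 1 gene (0.00506%) above. In most calls, in both directions, the vehicle array was thus the one farther from 0, and in a small set of genes the estradiol array was. A gene is called carried by the array that lies farther from 0, which describes its values and is no second check.

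**Figure D1:**
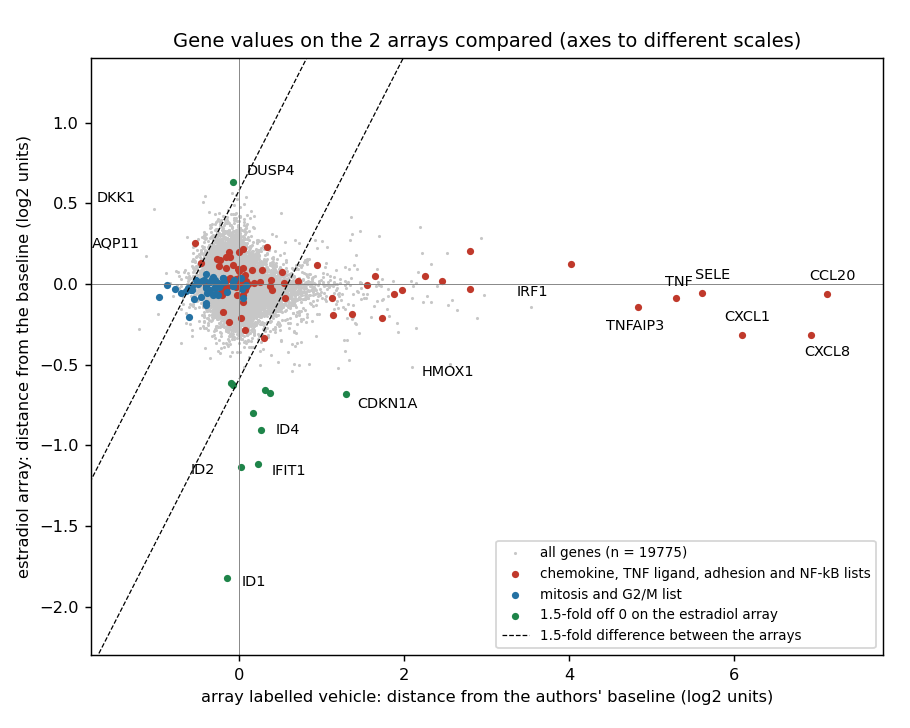
Each point is a gene, with its distance from the baseline on the array labelled vehicle (x axis) and on the estradiol array (y axis), both in log2 units and drawn to different scales, and dashed lines mark 1.5-fold between the arrays. Inflammatory genes (red) spread along the x axis up to 7.12, the 50 mitosis genes (blue) sit left of it at a median of -0.36, and the 11 genes 1.5-fold off 0 on the estradiol array (green) are spread along the y axis, from ID1 at -1.82 to DUSP4 at 0.63.

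Promoters from among the lowest genes are shown first, 6 of them chosen, after the values and letters were seen, because they hold the kB core described below. TNF, IRF1, PMAIP1 and NOD2, also among the 10 lowest, hold no match to its letters in their windows. The stretches are the 110 bases before the start site, read 5′ to 3′ on the gene's strand from the RefSeq promoter table of GRCh38.p14, 1 window per gene. Capitals mark the kB core GGNNTTTCC on either strand and the TATA box letters TATAAA on the gene's strand. Other forms of a kB site were not searched, so a stretch without this core can still hold a kB site. Positions are counted back from the start site, where -1 is the last base before it, and give the first base of each core. CXCL8 is on the + strand at chr4:73740459-73740568, CCL20 on the + strand at chr2:227813732-227813841, CXCL1 on the + strand at chr4:73869283-73869392, CXCL3 on the - strand at chr4:74038690-74038799, SELE on the - strand at chr1:169734080-169734189 and TNFAIP3 on the + strand at chr6:137867149-137867258.
CXCL8: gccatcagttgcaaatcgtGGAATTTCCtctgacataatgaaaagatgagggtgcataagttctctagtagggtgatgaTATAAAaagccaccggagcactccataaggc
CCL20: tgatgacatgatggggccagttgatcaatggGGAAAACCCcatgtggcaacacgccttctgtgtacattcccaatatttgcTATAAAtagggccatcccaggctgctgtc
CXCL1: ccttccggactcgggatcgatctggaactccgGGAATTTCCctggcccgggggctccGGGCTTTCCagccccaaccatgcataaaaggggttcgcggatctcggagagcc
CXCL3: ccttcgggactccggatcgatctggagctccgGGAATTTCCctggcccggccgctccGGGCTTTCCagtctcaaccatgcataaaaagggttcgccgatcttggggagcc
SELE: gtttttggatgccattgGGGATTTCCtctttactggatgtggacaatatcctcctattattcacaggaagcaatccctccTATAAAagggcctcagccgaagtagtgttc
TNFAIP3: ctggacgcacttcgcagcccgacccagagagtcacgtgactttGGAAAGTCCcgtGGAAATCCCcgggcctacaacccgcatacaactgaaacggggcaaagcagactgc
TNF, lower without a match to GGNNTTTCC in these letters, is on the + strand at chr6:31575455-31575564. ID1, carried by the estradiol array, is on the + strand at chr20:31605179-31605288, and DKK1, the gene with the largest difference on the higher side, on the + strand at chr10:52314171-52314280. These 3 are shown for contrast.
TNF: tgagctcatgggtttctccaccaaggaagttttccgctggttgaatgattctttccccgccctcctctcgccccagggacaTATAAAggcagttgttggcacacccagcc
ID1: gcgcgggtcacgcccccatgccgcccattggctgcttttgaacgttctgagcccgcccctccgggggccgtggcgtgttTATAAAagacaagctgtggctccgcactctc
DKK1: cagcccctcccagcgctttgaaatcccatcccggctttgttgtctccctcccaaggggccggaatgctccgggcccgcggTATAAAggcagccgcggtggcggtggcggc

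In CXCL8 the kB core began at -91 and the TATA letters at -31. In CCL20 they began at -79 and -29, and in SELE at -93 and -30. CXCL1 and CXCL3, members of the same chemokine cluster on opposite strands, carried a pair of kB cores each, at -78 and -53, and were identical at 99 of 110 positions without gaps. TNFAIP3 carried a pair at -67 and -55. TNF, ID1 and DKK1 had TATA letters at -29, -31 and -30 and no match to GGNNTTTCC.

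Windows of 300 bases, 250 before to 50 after the start, were searched on both strands for 15384 of the measured genes. The kB core was present in 11 of the 24 lowest genes that had a window (45.8%), in 31 of 137 genes lower by 2-fold (22.6%) and in 69 of 459 genes lower by 1.5-fold (15%). It was present in 6 of 125 higher genes (4.8%), in 996 of 15384 measured genes (6.47%) and in 2198 of all 35116 windows (6.26%). The share thus increased with the size of the difference on the lower side. The TATA letters TATAAA were in 23.4% of windows of genes lower by 2-fold, 12.9% of lower, 15.2% of higher and 8.76% of measured genes. The cyclic AMP response element TGACGTCA was in 5.23% of lower, 0% of higher and 2.67% of measured genes. The AP-1 letters TGANTCA were in 5.01% of lower and 5.84% of measured genes. The cell cycle homology letters TTTGAA were in 13.7% of lower, 20.8% of higher and 11.9% of measured genes. The AhR core TNGCGTG was in 8.71% of lower, 7.2% of higher and 6.51% of measured genes, and the interferon response element, searched by a short pair of repeats, in 6.1%, 2.4% and 2.94%. The short oestrogen response core GGTCANNNT was in 5 of the 24 lowest genes (20.8%), in 8.76% of genes lower by 2-fold, and in 6.75% of lower, 7.2% of higher and 8.31% of measured genes. The full oestrogen response element, which contains that core, was in 0% of both called sets and 0.039% of measured genes. These matches describe letters in a window and say nothing of binding.

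**Figure D2:**
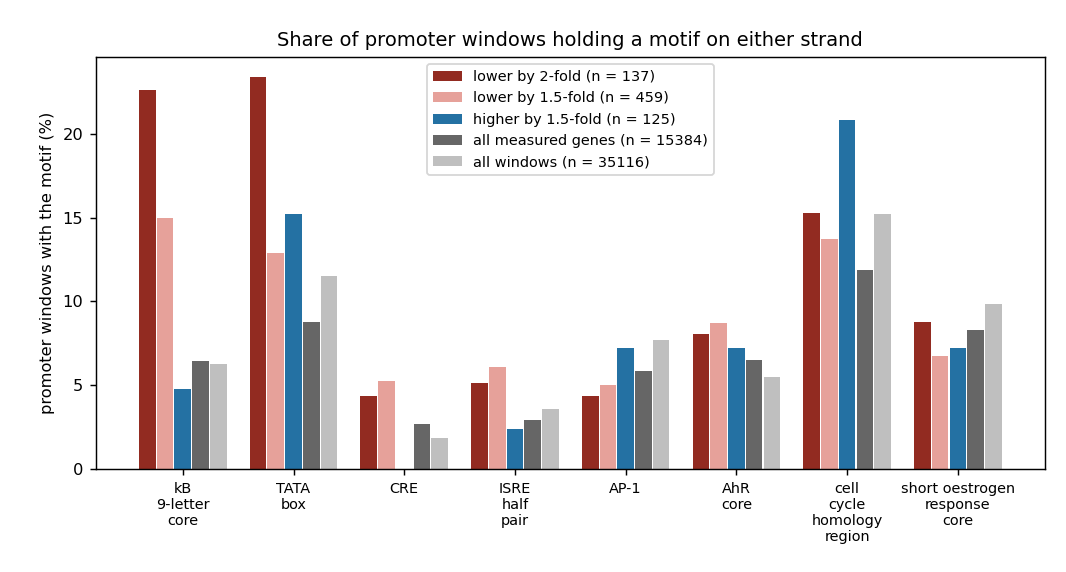
Bars give the percentage of 300-base promoter windows that hold each motif on either strand, for genes lower by 2-fold, lower by 1.5-fold, higher by 1.5-fold, all measured genes and all windows. The kB core stands at 22.6% of windows of genes lower by 2-fold against 6.47% of measured genes, while the short oestrogen response core stands at 8.76% and 8.31% in the same sets.

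The genes with the widest differences were chemokines. CXCL8, the neutrophil attractant interleukin 8, lay at 6.93 on the vehicle array, -0.31 on the estradiol array and 1.65 with ERα17p. It was 152-fold lower with estradiol, and its 2 probe sets differed by -7.74 and -6.75. CCL20, a chemokine of the gut and skin that attracts dendritic and T cells, lay at 7.12, -0.06 and 1.29. CXCL1 and CXCL3, further neutrophil attractants whose promoters hold the pairs of kB cores shown above, lay at 6.10 and 4.02 on the vehicle array, at -0.32 and 0.12 on the estradiol array and at 0.43 and -0.11 with ERα17p. On all these the vehicle array was high. CXCL10 and CXCL11, chemokines that interferon induces, lay at 2.80 and 1.64 on the vehicle array, at -0.03 and 0.05 on the estradiol array and at 0.57 and 0.77 with ERα17p. In CXCL8, CCL20, CXCL1, CXCL10 and CXCL11, but not in CXCL3, the ERα17p array lay between the other two.

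The other chemokines split. CCL2, the monocyte attractant, lay at 2.80, 0.20 and 0.91, and CX3CL1, the membrane-bound fractalkine, lay at 2.45, 0.02 and 0.04. Of 16 measured CXC genes 6 were lower (37.5%, against 2.93% of all genes) and 0 higher, against 0.809% of all genes. CXCL16 differed least of the 6, by -0.64, and the median difference of -0.06 was close to the 0.03 of all genes. Among 19 CC and CX3C genes 4 were lower and 2 were higher, CCL19 by 0.79 and CCL24 by 0.60. CCL5 differed by -0.82, with probe sets from -1.91 to -0.75. Wide differences were therefore those of a few members and not of the families.

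SELE, the endothelial adhesion molecule E-selectin, lay at 5.61 on the vehicle array and -0.06 on the estradiol array, from 1 probe set, and carries a kB core in the stretch above. ICAM1, which binds leukocyte integrins, lay at 1.87 and -0.06, and its 3 probe sets disagreed in size, from -3.99 to -0.18. Those were the only 2 of 14 measured adhesion molecules past the threshold. TNF, the cytokine that itself activates NF-kB, lay at 5.30, -0.09 and 0.64. TNFSF9, a costimulatory ligand of the same family, lay at 1.73 and -0.21. The TNF ligand list had 3 of 15 lower, and the receptor list 4 of 19, led by TNFRSF11B, the decoy receptor osteoprotegerin, which differed by -1.23. TNFRSF10A and TNFRSF10B, the TRAIL death receptors, differed by -0.64 and -0.85. Interleukins and colony-stimulating factors had 2 of 27 lower (7.41%, against 2.93% of all genes) and a median near 0, IL15 and IL6 differing by -0.74 and -0.69. None of 15 leukocyte marker genes passed the threshold in either direction, with differences from -0.33 to 0.42. Nor did any of 15 endothelial and fibroblast markers, from -0.39 to 0.42. In lists of 15 genes the 2.93% lower and 0.809% higher of all genes also come to few calls.

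NF-kB subunit and regulator genes were lower in 8 of 18 measured (44.4%, against 2.93% of all genes). The list median was -0.43, and the difference of 17 of 18 was below 0. TNFAIP3, the ubiquitin-editing inhibitor A20, lay at 4.84, -0.14 and 0.84. NFKBIZ, NFKBIE and NFKBIA, members of the IκB family, differed by -2.21, -2.01 and -1.33. NFKBIA differed by 0.07 once several-transcript probe sets were left out. These are probe sets whose suffix marks a match to more than 1 transcript, which can be of the same gene. The subunit genes RELB, REL and NFKB1 differed by -1.55, -1.55 and -1.21, and CYLD, a deubiquitinase that dampens the pathway, by -0.70. NOD2, a sensor of bacterial cell wall upstream of NF-kB and the genomic neighbour of CYLD, lay at 2.55 on the vehicle array and -0.50 on the estradiol array. On the estradiol array the values of this list ran from -0.19 to 0.23, so that its genes lay near the baseline there, and 8 of them lay at least 1.5-fold above it on the vehicle array.

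Interferon genes were lower by smaller amounts, IRF1 apart. IRF1, the interferon regulatory factor that NF-kB also induces, lay at 3.54, -0.14 and 0.21, and its 2 probe sets differed by -3.74 and -3.62. IRF7 and IRF9 differed by -0.72 and -0.70. Of 28 interferon-stimulated genes, 9 were lower (32.1%, against 2.93% of all genes) and 0 higher, with a median of -0.30. They included the guanylate-binding proteins GBP2 (-1.77) and GBP1 (-1.19), the RNA sensor IFIH1 (-0.95), and the neighbouring genes IFIT2, IFIT3, IFIT1 and IFIT5, which form a run on chromosome 10. IFIT1, a protein that binds viral RNA, differed from the rest of its run: it lay at 0.22 on the vehicle array and -1.12 on the estradiol array, while IFIT3 lay at 0.62 and -0.24. IFIT1 was thus carried by the estradiol array, and IFIT2 (0.49 and -0.13), IFIT3 and IFIT5 (0.56 and -0.09) mostly by the vehicle array.

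**Figure D3:**
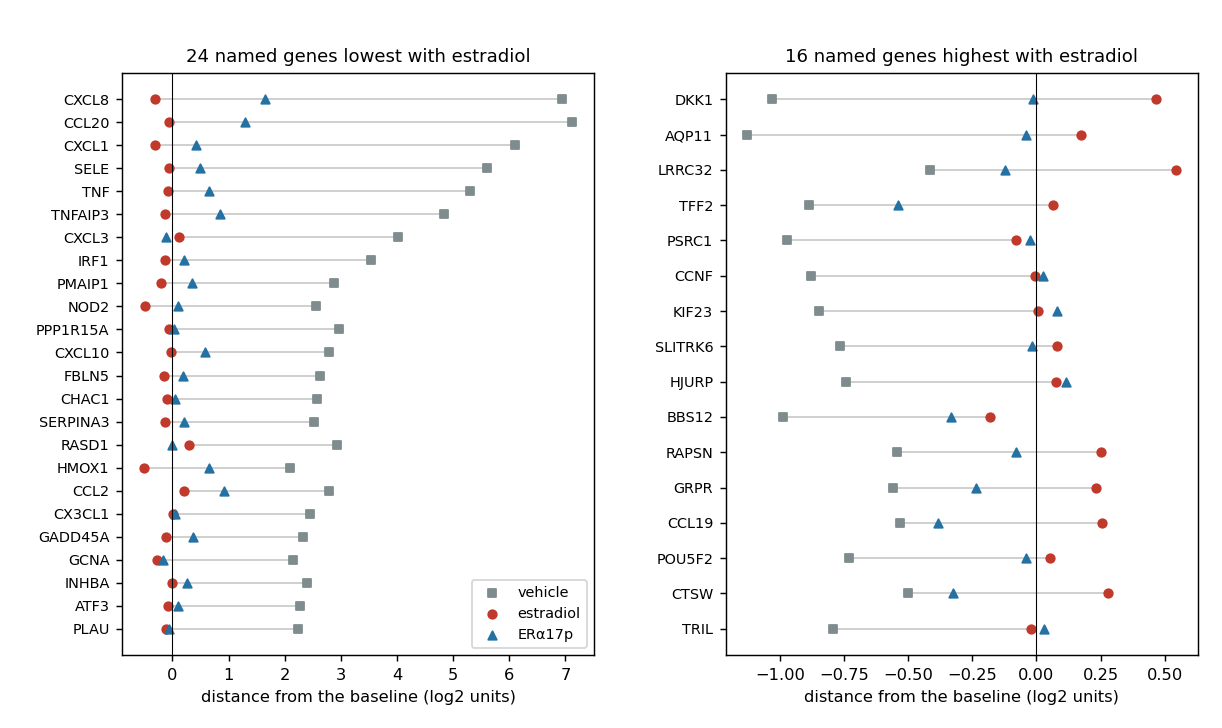
Values of the 24 genes lowest and the 16 genes highest with estradiol, in log2 units from the baseline, on the vehicle (squares), estradiol (circles) and ERα17p (triangles) arrays, leaving out locus and noncoding symbols. On the left the squares run from 2.10 (HMOX1) to 7.12 (CCL20) while the circles stay between -0.51 and 0.29, and on the right the squares lie below 0, down to -1.13 for AQP11.

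Immediate early genes, which ERK and stress kinases switch on without new protein, came next. In the AP-1, EGR and NR4A, immediate early and Krüppel-like lists no gene was higher. In lists of this size the 0.809% higher of all genes also comes to few or no genes. Of 17 AP-1 family genes 7 were lower (41.2%, against 2.93% of all genes) and 0 higher. FOS lay at 2.22 on the vehicle array, 0.20 on the estradiol array and -0.24 with ERα17p. FOSB differed by -1.85, JUN by -1.72 and JUNB by -1.65, and the 4 probe sets of JUN differed by -1.95 to -1.48. MAFF, a small partner of the AP-1 proteins, differed by -2.20. The vehicle array was the high one in each of these 5 genes.

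The zinc finger factor EGR1 lay at 1.37, 0.31 and -0.13, a difference of -1.06, and EGR3 differed by -0.97. The orphan nuclear receptor NR4A2 lay at 1.73, 0.03 and -0.04, with 3 probe sets from -1.79 to -1.46, and NR4A3 differed by -0.96. With these, 4 of 8 measured EGR and NR4A genes were lower (50%, against 2.93% of all genes), with a median of -0.74. In the wider list of immediate early genes 11 of 23 were lower (47.8%, against 2.93% of all genes) and 0 higher, with a median of -0.52. PLK2, a polo-like kinase of that list, lay at 2.52, 0.19 and 0.14. SGK1, a kinase of ion transport and survival, differed by -1.66, IER5 by -1.45 and IER3, which protects from cell death, by -1.05. Among 16 Krüppel-like factors 4 were lower (25%, against 2.93% of all genes). KLF6, KLF10, KLF7 and KLF4 differed by -1.19, -1.04, -0.91 and -0.64.

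Small G protein genes were among the widest of this kind. RASD1, a RAS-like protein, lay at 2.93 on the vehicle array, 0.29 on the estradiol array and near 0 with ERα17p. RGS2, which switches off G protein signals, lay at 2.10 and -0.08. In this list 5 of 22 were lower and its median was 0.01. The cyclic AMP and CREB list, which shares RGS2, FOSB, NR4A2 and NR4A3 with the lists above, had 6 of 20 lower. PDE4B, an enzyme that degrades cyclic AMP, lay at 1.28 and 0.10, and CREB1, which binds the response element, had 7 probe sets with differences from -0.88 to -0.44.

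Genes that feed back on kinase signals went both ways. DUSP10, a phosphatase of the stress kinases, lay at 2.10, -0.01 and -0.12, and DUSP5, which acts on ERK in the nucleus, lay at 1.39 and 0.12. SPRY4, an inhibitor of receptor tyrosine kinase signals, differed by -1.07, and ERRFI1, an inhibitor of EGF receptors, by -1.24. The EGF receptor ligands EREG and HBEGF differed by -0.94 and -0.77, but their probe sets disagreed. The 2 of EREG differed by -2.17 and 0.29, and the 4 of HBEGF ran from -1.75 to 0.02. DUSP4, a nuclear phosphatase of ERK, was the 1 gene higher against both references, and lay at -0.08 on the vehicle array, 0.63 on the estradiol array and -0.16 with ERα17p. Its 3 probe sets differed by 0.58, 0.73 and 0.83. The estradiol array was high and the others were not, while in DUSP10, DUSP5, SPRY4 and ERRFI1 the vehicle array was the high one.

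Against both references 8 genes were lower, ID1, ID2, ID3, ID4, SMAD7, HOXC13, CDKN1A and IFIT1, and in all of them but CDKN1A the vehicle array lay within 1.5-fold of 0. ID1 lay at -0.15 on the vehicle array, -1.82 on the estradiol array and 0.20 with ERα17p. The ID genes encode inhibitors of DNA binding that sequester helix-loop-helix factors and are known as direct targets of bone morphogenetic proteins. ID2 lay at 0.02, -1.13 and 0.06, and its 2 probe sets differed by -1.21 and -1.10. ID3 lay at 0.16, -0.80 and 0.11. The estradiol array alone was low in each of these 3 genes.

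ID4 lay at 0.26, -0.91 and 0.18, and its 5 probe sets differed from -1.56 to 0.11, with 3 of them past the threshold. SMAD7, the inhibitory SMAD that TGF-β and bone morphogenetic proteins induce, lay at 0.37, -0.68 and 0.25. HOXC13, a homeobox factor of hair and nail, lay at 0.30, -0.66 and 0.06, and CDKN1A, the cyclin-dependent kinase inhibitor p21, lay at 1.30, -0.68 and 0.10. In CDKN1A the vehicle array was high and the estradiol array low. DLX3, a homeobox factor, and EDN2, an endothelin, were below 0 by the same measure, at -0.61 and -0.62, and differed from the vehicle array by -0.51 and -0.54, just short of the threshold. BHLHE40 and HEY1 differed by -0.92 and -0.70. With them, 6 of 15 ID, HES and HEY repressors were lower (40%, against 2.93% of all genes) and 0 higher. Of these 15, 4 lay at least 1.5-fold below 0 on the estradiol array. BHLHE40 was carried by the vehicle array, at 0.88 against -0.04 on the estradiol array, and its 2 probe sets differed by -1.61 and -0.22.

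Among single probe sets, 23, from 20 genes, lay at least 1.5-fold below 0 on the estradiol array and 11, from 10 genes, above. Besides the genes named, they held, as examples chosen after their values were seen, a probe set each of DLX1 (-0.91), DLX2 (-0.90) and the inhibitory SMAD gene SMAD6 (-0.82), whose other probe sets did not pass. The rest below 0 were of LTN1, KLHL24, SLC39A9, MBTD1, CREBRF, SMOC2 and FIBIN, from -0.87 (LTN1) to -0.59 (FIBIN). Over all their probe sets DLX2, DLX1 and SMAD6 differed by -1.22, -0.57 and -0.06. BAMBI, a decoy receptor of the same pathway, lay at 1.29 on the vehicle array and -0.42 on the estradiol array. In the SMAD, TGF-β and BMP list 6 of 28 were lower (21.4%, against 2.93% of all genes) and 0 higher, with a median of -0.14. INHBA, an activin subunit, differed by -2.41, but its 3 probe sets ran from -3.47 to 0.17. On the higher side the lipid desaturase gene SCD5 had 1 of 4 probe sets at 1.16 on the estradiol array, and its gene value differed by only 0.30.

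Growth arrest and stress genes were lower in part. In the p53 and GADD45 list 8 of 24 were lower (33.3%, against 2.93% of all genes) and 0 higher. GADD45A and GADD45B, stress sensors that slow the cell cycle, lay at 2.32 and 1.45 on the vehicle array and -0.11 and -0.30 on the estradiol array. PMAIP1, the pro-apoptotic BCL2 family member NOXA, lay at 2.88, -0.21 and 0.34, and its 2 probe sets differed by -3.17 and -3.002. PPP1R15A, which restores translation after stress, lay at 2.96, -0.07 and 0.03. CHAC1, a glutathione-degrading enzyme, differed by -2.68, ATF3 by -2.35 with probe sets from -3.57 to 0.04, and DDIT3, the factor CHOP, by -1.48. These belong to the ATF4 list of the integrated stress response, in which 11 of 24 were lower (45.8%, against 2.93% of all genes). In that list 0 were higher and the median was -0.49. The list of endoplasmic reticulum chaperones and other unfolded protein response genes had 1 of 21 lower (4.76%, against 2.93% of all genes) and a median near 0. The lower gene was ERN1, a sensor of that response and no chaperone, which differed by -0.80.

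HMOX1, which degrades haem and is an NRF2 target, lay at 2.10 on the vehicle array, -0.51 on the estradiol array and 0.65 with ERα17p. SOD2, the mitochondrial superoxide dismutase that NF-kB induces, lay at 1.20, -0.52 and -0.03. SLC7A11, the cystine transporter, differed by -1.56. With OSGIN1 these were the 4 of 25 in the NRF2 list that were lower (16%, against 2.93% of all genes). IRS2, the adaptor of the insulin receptor, lay at 2.09, 0.02 and 0.05, and FOXO3 and FOXO1, factors of the same pathway, differed by -0.73 and -0.70. PFKFB3, which drives glycolysis, lay at 1.33, -0.47 and 0.30. Of 25 genes of cholesterol and fatty acid synthesis 4 were lower, with a list median of -0.03: HMGCS1, INSIG1, STARD4 and MSMO1 differed by -1.05, -0.89, -0.81 and -0.64. PLAU, the urokinase, lay at 2.23 and -0.11, and SERPINA3, an acute phase inhibitor of proteases, lay at 2.53 and -0.13.

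Transcription and splicing genes leaned to the lower side by small amounts. Of 29 splicing factors 26 had a difference below 0, with a median of -0.18, and 4 were lower. The kinase CLK1 and the factors SRSF6, SRSF5 and SRSF7 differed by -1.06, -0.90, -0.76 and -0.60. Of 24 genes of RNA polymerase II transcription 19 had one below 0, and 3 were lower, GTF2B, MED26 and HEXIM1, which differed by -0.70, -0.63 and -0.61. ZFP36, which marks cytokine mRNA for decay, lay at 2.16 and 0.07, and 4 of 25 mRNA decay factors were lower while TOB1 was higher by 0.66. Zinc finger genes named ZNF and a number were lower in 43 of 468 (9.19%), against 2.93% of all genes, and higher in 0. They were led by ZNF670, which lay at 1.37 on the vehicle array and -0.22 on the estradiol array, and ZNF596, at 1.38 and -0.20. Genes named ZBTB were lower in 6 of 42 (14.3%). Both families were chosen by symbol after the values had been seen, so their shares are descriptions.

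Among the higher genes the mitosis list led by number. Of 50 measured genes of mitosis and G2/M, 47 had a difference above 0, against 11091 of all 19775 genes, with a median of 0.36. Only 6 were higher and 0 lower, against 0.809% and 2.93% of all genes. The median of the genes' distances from the baseline was -0.36 on the vehicle array and -0.01 on the estradiol array. CCNF, cyclin F, lay at -0.88 on the vehicle array, -0.01 on the estradiol array and 0.02 with ERα17p, and PSRC1, a spindle protein, lay at -0.97, -0.08 and -0.02. BUB1B, a spindle checkpoint kinase, differed by 0.75, MKI67, the proliferation antigen, by 0.60 and PLK1, the mitotic kinase, by 0.60. The vehicle array was low in each, and both treated arrays lay near 0.

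All 13 measured kinesins of mitosis had differences above 0, from 0.15 to 0.85 (KIF23), with a median of 0.31, while 17 kinesins of transport had a median near 0 and ran from -0.48 to 0.29. Genes of G1/S and DNA replication had 1 of 42 lower (2.38%, near the 2.93% of all genes), E2F3 with a difference of -0.70, and 1 higher, E2F8 with 0.63, and a median of 0.05. Replication-dependent histones had 0 of 36 in either direction, against 2.93% lower and 0.809% higher of all genes, and a median of 0.03. TXNIP, an inhibitor of thioredoxin and glucose uptake, lay at -0.68, -0.12 and 0.03, and differed by 0.56, just short of the threshold.

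Single genes on the higher side were mostly read by 1 probe set. DKK1, a secreted Wnt antagonist, lay at -1.03 on the vehicle array, 0.47 on the estradiol array and -0.01 with ERα17p. It was the only 1 of 30 Wnt ligands and antagonists past the threshold, where the shares of all genes also come to few calls. AQP11, an aquaporin of intracellular membranes, lay at -1.13, 0.17 and -0.04. TFF2, a trefoil peptide of mucous epithelia, lay at -0.89, 0.07 and -0.54, so that the ERα17p array sided with the vehicle array. CISH, a cytokine signal inhibitor that STAT5 induces, lay at -0.76 and near 0, and its 3 probe sets differed by 0.71 to 0.79. TRIL, an accessory protein of Toll-like receptors, had 2 probe sets that each differed by 0.77.

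Some gene families of other tissues leaned to this side and some did not. The differences of olfactory receptor genes, which sensory neurons of the nose use, were above 0 in 65 of 82, against 11091 of all 19775 genes, with a median of 0.15. None of the 82 was lower and 2 were higher (2.44%, against 0.809% of all genes). Keratin-associated protein genes of hair had 2 of 34 higher and a median of 0.13, and beta-defensins 0 of 14 and 0.10. Bitter taste receptors had 0 of 18 and -0.01, and MAGE antigens 0 of 16 and -0.04, with 10 of 16 below 0. Of the 160 higher genes 138 (86.2%) had 1 probe set, against 46.8% of all genes and 51.3% of the lower ones. Among genes with 1 probe set 1.49% were higher, and among genes with 2 probe sets 0.219%. The part of dim or unspecific probe sets in the higher calls was not tested.

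**Figure D4:**
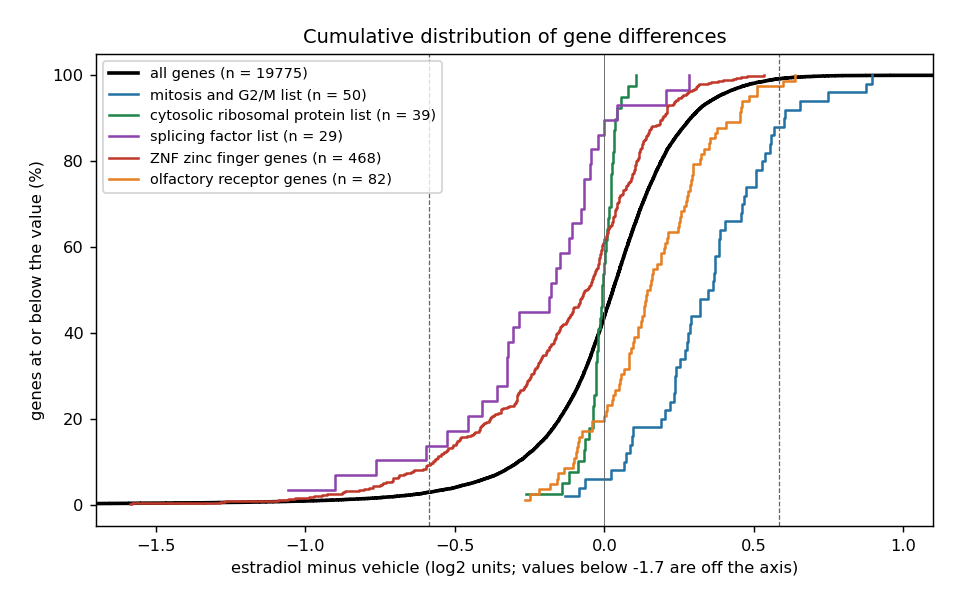
Curves give the percentage of genes at or below each difference of estradiol minus vehicle (log2 units) for all genes, 3 gene lists and 2 families named by symbol. Mitosis genes (median 0.36) and olfactory receptors (0.15) lie right of all genes (0.03), splicing factors (-0.18) and ZNF genes (-0.06) lie left, and ribosomal protein genes form a steep step at 0.

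Genes tied to oestrogen itself showed few calls. At lists of this size the 2.93% lower and 0.809% higher of all genes also come to few calls. ESR1 and ESR2, the nuclear oestrogen receptors, differed by 0.10 and -0.09, GPER1 by -0.04, EGFR by -0.04 and ERBB2 by 0.02. Of 20 receptors and membrane partners 0 were called, with differences from -0.43 (GNAI1) to 0.32 (PRKACA), and of 21 coregulators 0, from -0.53 (RBM39) to 0.51 (NCOA2). Of 34 classical oestrogen-responsive genes 2 were lower and 0 higher, 5.88% against 2.93% of all genes, with a median of 0.01. They were EGR3, above, and HSPB8, a small heat shock protein, which lay at 0.58 on the vehicle array and -0.24 on the estradiol array. TFF1, the textbook oestrogen target of receptor-positive breast cells, lay at -0.40, 0.15 and -0.45, a difference of 0.54 that stayed under the threshold.

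Of 34 nuclear receptor genes 2 were lower (5.88%, against 2.93% of all genes), VDR and NR1D2, which differed by -0.69 and -0.68. AKR1C2, which differed by -0.62, was the 1 of 23 genes of oestrogen synthesis and clearance that was lower (4.35%, against 2.93% of all genes). It differed by 0.14 without several-transcript probe sets. In the AhR list AHRR, the repressor, and ARNT2, a partner protein, differed by -0.88 and -0.86. CYP1A1, an enzyme that hydroxylates estradiol, differed by 0.67 and lay at -0.28 on the vehicle array and 0.39 on the estradiol array. On the estradiol array alone, values in the list of classical responsive genes ran from -0.24 to 0.16.

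The ribosomal protein, respiratory chain, proteasome, luminal and basal lists held 1 call at most, unlike the splicing and transcription lists above. For lists of this size the 2.93% lower and 0.809% higher of all genes also come to few calls. Cytosolic ribosomal protein genes had 0 of 39 called and ran from -0.26 to 0.10, nuclear-coded respiratory chain genes had 0 of 32 and proteasome genes 0 of 30. Luminal and ERBB2 amplicon genes of SKBR3 had 0 of 24 lower and 1 higher, TFAP2B by 0.64, and basal epithelial markers had 0 of 9. Since levels cannot be read, whether these markers were expressed at all cannot be told.

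**Figure D5:**
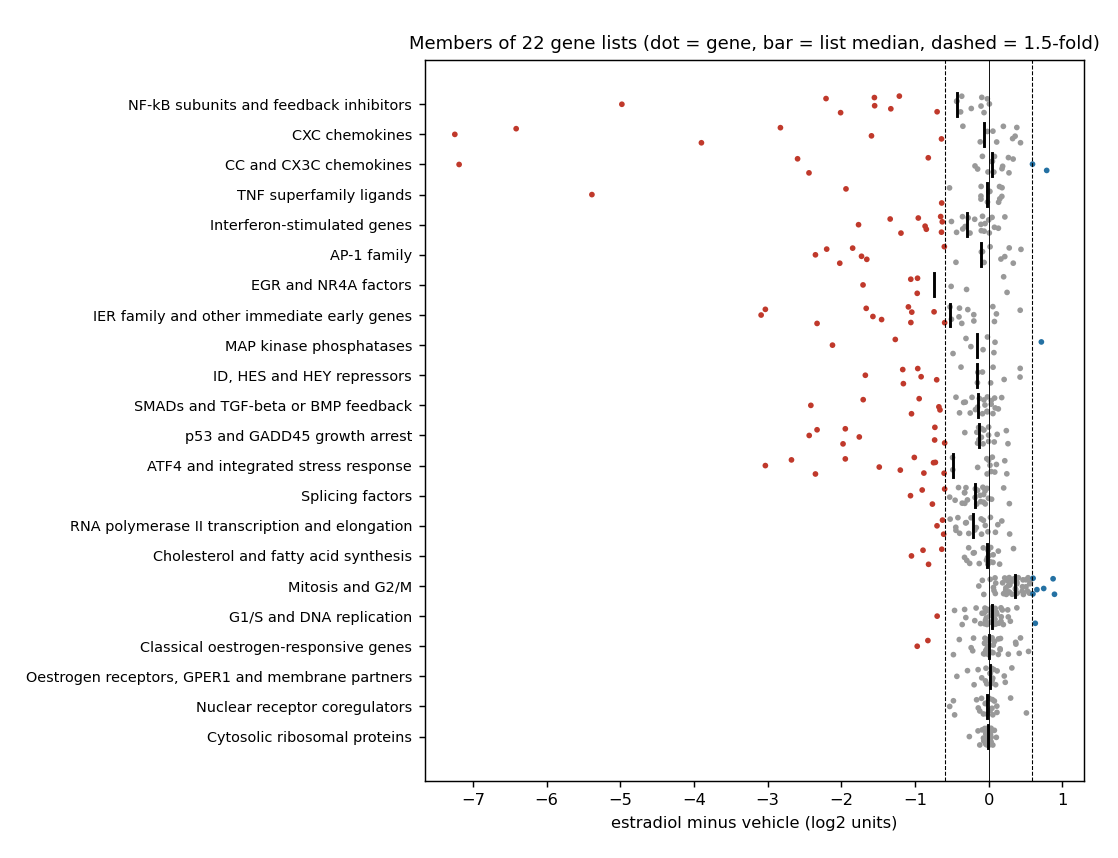
Each dot is a gene, placed by its difference of estradiol minus vehicle in log2 units, with list medians as bars, red dots lower and blue dots higher by 1.5-fold. Red dots reach -7.24 in the CXC chemokine list while most members of that list stay near 0, the mitosis list sits right of 0 as a block, and the oestrogen receptor, coregulator and ribosomal lists hold no coloured dot.

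How far the probe sets of a called gene agreed is a description and no check of the call, which rests on their median. Genes with all probe sets past 1.5-fold are by definition among those with all on the same side of 0. Of 282 lower genes with at least 2 probe sets, 238 had all of them below 0 and 110 had all of them past 1.5-fold. Of 22 such higher genes, 21 had all above 0 and 6 had all past 1.5-fold. Among genes with at least 3 probe sets, the lower ones that agreed best included PLPP3, a lipid phosphatase, whose probe sets differed by -1.91 to -1.73, IFRD1 with -1.39 to -1.10, KMO, an enzyme of tryptophan breakdown, with -1.20 to -0.92, and the interferon γ receptor gene IFNGR1 with -0.98 to -0.84. FBXO32, a ubiquitin ligase subunit, had 7 probe sets, all below 0, from -2.44 to -0.42. On the higher side THSD7A had 4 probe sets between 0.41 and 0.79. At the threshold itself NIP7 and GZF1 lay just inside at -0.59 and ANKHD1 and ZNFX1 just outside at -0.58, and LMX1B and GBX1 just inside at 0.59 with STUM and KIF20A just outside at 0.58.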

How the data were processed

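RNA from 3 samples of SKBR3 cells, 1 Affymetrix HG-U133 Plus 2 array each, was measured, and the arrays labelled vehicle and estradiol were compared. The deposited values come from RMA, per the submitters' processing notes, a method that gives log2 expression values from background-corrected, quantile-normalised probe intensities. Per the deposited values a baseline had then been subtracted: column medians were -0.021, -0.002 and 0.002 for the vehicle, estradiol and ERα17p arrays. In 1920 of 54613 probe sets the estradiol and ERα17p values were mirror images around 0, to a tolerance of 1e-06. In 1180 of the 54613 the estradiol and vehicle values were mirror images. The baseline can therefore not be taken as independent of these arrays. No source used here gives the log base of the deposited values, the RMA version or the arrays behind that baseline. Depth has no equivalent on arrays, and their number limits the precision.

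Names came from the platform annotation. The 62 controls, 1801 probe sets with several symbols and 11721 with none were left out. Each array's median over the probe sets of a gene was that gene's value, and a difference was estradiol minus vehicle. Genes past 1.5-fold were counted, and no test was run, since each group had 1 array. Named genes were the 30 lowest and 25 highest, all past 1.5-fold against both vehicle and 0, the 8 each way whose probe sets agreed best, up to 4 per list by size, 5 receptor genes and those at the threshold. Others named beside them, and families defined by symbol, were chosen after their values were seen. The members, the 62 gene lists, which overlap in part, and the motifs were chosen with earlier results of these data known. Promoter windows came from RefSeq (GRCh38.p14). No build is named for the array files, so gene lengths were not used. Alternatives were the mean over probe sets, leaving out several-transcript probe sets (suffixes _s_at, _x_at and _a_at), calls by every probe set and 2-fold. Others were the baseline in place of the vehicle array, 2 other centrings, natural logarithms and the median of probe set differences. The last was chosen after seeing the data. Python 3.11.15, pandas 2.3.3 and numpy 2.4.6 were used.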

Additional observations from a re-analysis of the deposited data

Results flagged for a closer look

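The widest differences on the higher side belonged to 3 probe sets without a gene name here, which no gene value above uses. Probe set 1558048_x_at lay at 0.02 on the vehicle array, 6.35 with estradiol and -0.03 with ERα17p, a difference of 6.33 log2 units. Probe set 234675_x_at lay at 2.39 on the estradiol array and near 0 on both others, and differed by 2.39. Probe set 224549_x_at lay at 0.10, 2.01 and -0.22 in the order vehicle, estradiol and ERα17p, and differed by 1.92. The highest gene with a name, DKK1, differed by 1.499. All 3 identifiers end in _x_at, the suffix of probe sets whose probes can take up other transcripts. No source used here says what they measure.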

How the results depend on the processing

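The count of genes lower with estradiol was 579, and it was 177 at 2-fold, 10 with the authors' baseline in place of the vehicle array and 1168 with values read as natural logarithms. The count of higher genes was 160, and under the same alternatives 2, 1 and 815. The counts stayed within 407 to 625 and 131 to 188 under the other alternatives. These were the mean over probe sets, leaving out several-transcript probe sets, calls by every probe set, both centrings and the median of probe set differences. Calls by every probe set cannot change a gene with 1 probe set, as 297 lower and 138 higher genes had. Among genes with 2 or more, 110 of 282 lower and 6 of 22 higher ones passed. Similar counts can also hold different genes. When several-transcript probe sets were left out, 431 of the 579 and 130 of the 160 kept their call. Genes left without a value count as lost there. Of the 156 named genes past 1.5-fold, 147 stayed so on the same side with the mean over probe sets. With the centrings 152 and 153 stayed so, at 2-fold 85 and against the baseline 9. Without several-transcript probe sets 105 of the 114 that kept a value stayed so. Leaving out several-transcript probe sets turned AKR1C2 to 0.14, ATF3 to 0.038 and NFKBIA to 0.073. Against the baseline, lower genes whose estradiol value lay above 0 were EGR1 0.31, RASD1 0.29, SPRY4 0.27, CCL2 0.20, FOS 0.20, PLK2 0.19, TNFRSF11B 0.18, TNFRSF10A 0.15, KLF4 0.13, MAFF 0.12, CXCL3 0.12, DUSP5 0.12, CCL5 0.12, PDE4B 0.10, EREG 0.10, ERRFI1 0.091, ZFP36 0.074, CXCL11 0.052, NFKBIZ 0.048, IER3 0.047, GBP1 0.030, NR4A2 0.029, NR4A3 0.024, IRS2 0.021, KMO 0.020, FOSB 0.018, CYLD 0.017, CX3CL1 0.017, IFRD1 0.0075, IER5 0.0074, SRSF7 0.0034 and IL6 0.0010, and the median of the EGR and NR4A list was 0.043. Higher genes whose estradiol value lay below 0 were PSRC1 -0.079, E2F8 -0.046, PLK1 -0.044, BUB1B -0.030, MKI67 -0.024, TRIL -0.022, CCNF -0.0062 and CISH -0.0027. The changes against the baseline follow from leaving out the vehicle array, and the cause of the other 3 was not tested. The results rest on 1 array per condition, the log base and the baseline are unknown, and signal over background cannot be read.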

Other observations

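Lower genes also stood next to each other on chromosomes in pairs and short runs. Neighbours in the RefSeq gene order that were both lower included CXCL10 and CXCL11, the guanylate-binding proteins GBP3, GBP1 and GBP2, DDX60 and DDX60L, both antiviral helicases, SNAI1 and CEBPB, and SOD2 and WTAP. Whether such runs are more frequent than among other genes was not tested.

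The interferon-inducible helicase gene DDX60 lay at 0.31 on the vehicle array and -0.33 on the estradiol array. OVOL1, a factor that keeps epithelial identity, lay at 0.66 and -0.49, and SNAI1, a factor that opposes it, at 0.97 and -0.06. HSPA2, a heat shock protein, lay at 1.15 and -0.15, JAG1, a Notch ligand, at 0.90 and -0.11, and MMP13, a collagenase, at 0.93 and -0.32. The vehicle array was the farther one from 0 in OVOL1, SNAI1, HSPA2, JAG1 and MMP13, and the estradiol array in DDX60, by little.

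Probe sets outside the gene values had shares of calls unlike the named ones. Of 11721 probe sets without a symbol 2.2% were lower and 2.16% higher, against 3.71% and 1.38% of the 41091 with 1 symbol.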
